A study of Homo sapiens with 6 samples.

Results

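The genes described here are 38 genes of the G2 phase and of mitosis. They were chosen by name from the cell cycle machinery and not by their values, although earlier results of these data were known. All 38 were among the 19225 symbols of the expression table, and all 38 were among the 12884 genes that passed the filter of a mean of at least 0.5 FPKM (a read level corrected for gene length and sequencing depth). They comprise 6 cyclins, CDK1 and its phosphatases, 6 mitotic kinases, 6 centromere, kinetochore and checkpoint genes, 5 kinesins, 4 spindle assembly genes, 3 genes of anaphase entry, 4 genes of chromosome structure and surface, 2 cytokinesis genes and 2 transcription factors.

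Entry into mitosis is driven by CDK1 bound to cyclin B, which CDC25 phosphatases activate and WEE1 holds inactive. PLK1 and the Aurora kinases then build the spindle, the checkpoint waits for attached kinetochores, and the APC/C with CDC20 marks cyclin B and securin for destruction so that chromosomes can separate. Most of these genes are transcribed late in the cycle under B-MYB with the MuvB complex and FOXM1. In growing cultures their mRNA level therefore follows the share of cells in G2 and mitosis. Separately, p53 lowers many of them through p21 and the DREAM complex.

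RNA sequencing covered SW480 cells, an established colon cancer cell line whose labels give mutant p53 as the genotype. There were 3 control libraries and 3 libraries of cells transiently transfected with a plasmid encoding MDM4, an inhibitor and partner of p53, and the libraries of each group were numbered replicates 1 to 3. The labels give plasmid transfection as the treatment of all 6 samples, but not what the control plasmid held, and they call the second group exercised, which was read as the MDM4 group because no other group exists. The study asked what MDM4 changes in a p53-mutant cell.

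*MDM4* was at 6.35, 7.09 and 5.13 FPKM in the control libraries and at 188, 185 and 56.3 FPKM in the MDM4 libraries, so that the groups did not overlap and replicate 3 carried the least. Its difference of 4.33 ± 0.43 (SE) on the log2 scale had an adjusted p of 0.161 (limma), since the MDM4 libraries varied widely. Recovered reads on genes were between 32840353 and 44450380 per library. The replicate 3 libraries of both groups differed from the rest over many genes, and that split was compared as well. Of 10 colon epithelial markers, 7 had a mean of at least 0.5 FPKM, led by *KRT8* at 1550 to 1876 FPKM, while *CDX1*, *CEACAM5* and *LGR5* were between 0 and 0.0701 FPKM. The summed markers of macrophages or monocytes (10 genes, 5.94 to 7.34 FPKM, mostly *CD68*), fibroblasts (7 genes, 1.86 to 4.07 FPKM, mostly *COL1A1*) and endothelium (5 genes, 0.316 to 0.703 FPKM) were low, and the leukocyte marker *PTPRC* did not exceed 0.0142 FPKM in any library. The fibroblast sum was 4.07 and 4.03 FPKM in replicate 3 against 1.86 to 2.49 FPKM in the other 4 libraries, and the endothelial sum 0.703 and 0.686 against 0.316 to 0.467 FPKM, while *COL1A2* and *DCN* stayed at or under 0.00668 FPKM and *PECAM1* at or under 0.0201 FPKM.

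Promoters of these genes are known for 2 short elements, the CCAAT box that NF-Y binds and the CHR element that MuvB binds. RefSeq windows on GRCh38.p14, from 250 bases before to 50 bases after an annotated start, were at hand for 33 of the 38 genes. *AURKA*, *TTK*, *TPX2*, *UBE2C* and *FOXM1* had none. For the core of the entry switch, the 250 bases before the start are shown 5′ to 3′, with CCAAT (or ATTGG on the other strand) and the CHR letters TTTGAA or TTCGAA (or their reverse complements) in capitals. Where a gene had several windows, that with the most matches is shown. *CDC25C* lies at chr5:138331878-138332127 on the minus strand, *CCNB1* at chr5:69166900-69167149 on the plus strand, *CDK1* at chr10:60778228-60778477 on the plus strand and *PLK1* at chr16:23678639-23678888 on the plus strand.
CDC25C: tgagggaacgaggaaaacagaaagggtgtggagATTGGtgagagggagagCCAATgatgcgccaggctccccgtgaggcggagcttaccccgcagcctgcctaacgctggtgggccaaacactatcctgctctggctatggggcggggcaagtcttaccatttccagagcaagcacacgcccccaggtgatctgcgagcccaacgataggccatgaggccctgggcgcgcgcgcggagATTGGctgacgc
CCNB1: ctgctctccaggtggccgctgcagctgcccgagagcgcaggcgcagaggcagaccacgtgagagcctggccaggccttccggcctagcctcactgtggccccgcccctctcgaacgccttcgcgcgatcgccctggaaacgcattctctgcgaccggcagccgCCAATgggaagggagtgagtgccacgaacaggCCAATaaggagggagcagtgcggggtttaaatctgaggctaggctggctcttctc
CDK1: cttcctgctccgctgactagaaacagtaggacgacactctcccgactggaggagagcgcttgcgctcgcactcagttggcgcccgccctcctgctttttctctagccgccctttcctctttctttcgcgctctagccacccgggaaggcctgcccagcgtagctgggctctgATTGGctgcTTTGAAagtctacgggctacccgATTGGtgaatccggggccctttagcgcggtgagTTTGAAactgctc
PLK1: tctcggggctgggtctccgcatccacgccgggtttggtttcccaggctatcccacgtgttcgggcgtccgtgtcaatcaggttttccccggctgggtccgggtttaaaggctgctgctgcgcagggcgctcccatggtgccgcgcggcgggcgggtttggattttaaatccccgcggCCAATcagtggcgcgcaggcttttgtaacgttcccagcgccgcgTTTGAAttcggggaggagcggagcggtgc

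In *CDK1* the CCAAT letters began 78 and 46 bases before the start and the CHR letters 69 and 13 bases before it, and in *PLK1* they began at 73 and 29 bases. The *CCNB1* stretch held CCAAT at 87 and 55 bases and neither TTTGAA nor TTCGAA on either strand. Other forms of the CHR element were not searched for. The *CDC25C* stretch held CCAAT at 217, 200 and 12 bases. The CHR letters of that *CDC25C* window lie after its start, outside the bases shown, and the window of another *CDC25C* start held them 30 bases before that start. Over all windows of a gene, on both strands, CCAAT occurred in 25 of 33 genes (75.8%, against 39.7% of the 27305 genes with a window) and the CHR letters in 24 (72.7%, against 19.5%). Both were in the same window for 19 genes (57.6%, against 7.85%). The E2F-type letters TTTCCCGC or TTTGGCGC were in 2 genes, *CENPA* and *NUSAP1* (6.06%, against 2.75%). Of 31 G1/S genes with a window, 16 held the E2F-type letters, 2 the CHR letters and 18 CCAAT (58.1%). These are matches of letters in a window and not sites shown to be bound.

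The 38 genes were well expressed in SW480 cells. Means over the 6 libraries ran from 8.32 FPKM for *CDC25C*, the CDK1 phosphatase, to 255 FPKM for *UBE2C*, the ubiquitin-conjugating enzyme of the APC/C, with a median of 52.95 FPKM. The median gene of the 38 stood at the 89.0th percentile of the 12884 tested genes. The fewest reads were those on *CDC25C*, 469 to 1054 per library, and the median of the genes' lowest read counts was 4289. Per gene, the highest library was between 1.06 times (*BUB1B*) and 1.98 times (*CDC25C*) the lowest. The sum over the 38 genes in control cells was 2381, 2451 and 2309 FPKM for replicates 1 to 3, and in MDM4 cells it was 2310, 2407 and 2281 FPKM, so that the groups overlapped.

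**Figure D1:**
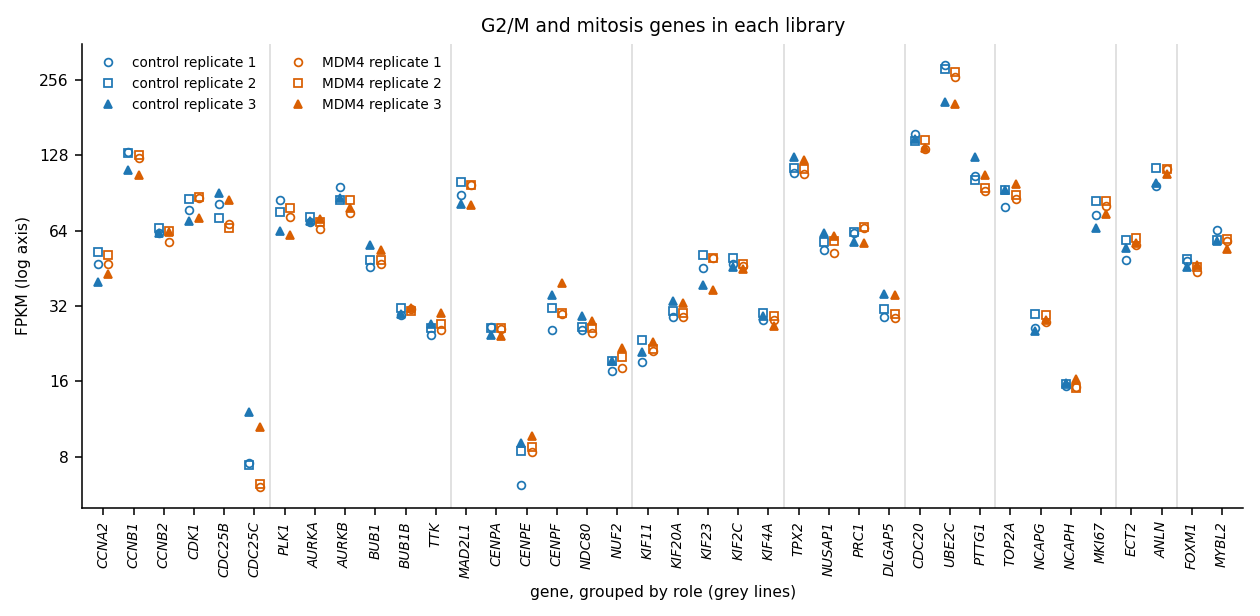
FPKM of the 38 genes (log axis) in each of the 6 libraries, grouped by role, with control in blue and MDM4 in orange and replicate 3 as filled triangles. *UBE2C* was the most abundant, *CDC25C* and *CENPE* the least, and no gene has all 3 MDM4 libraries on one side of all 3 control libraries.

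No G2/M or mitosis gene passed the test between MDM4 and control cells. The test was limma on log2(FPKM + 0.1), with Benjamini-Hochberg adjustment over all 12884 genes. Of the 38 genes, 0 passed an adjusted p of 0.05 in either direction (0.0% of all tested genes rose and 0.0% fell). The smallest adjusted p among the 38 was 0.9999 (limma). An unadjusted p under 0.05 was found for 0 of the 38 and for 222 of all tested genes (1.72%). The median difference over the 38 genes was -0.01 on the log2 scale, and it was -0.01 over all tested genes. In 37 of 38 genes the difference was under 0.25 in size (97.4%, against 91.3% of all tested genes). For 36 genes the 95% interval of the difference lay between -0.5 and 0.5, the exceptions being *CDC25C* and *CENPE*, and for all 38 it lay between -1 and 1. No gene had groups of 3 libraries that did not overlap, against 6.85% of all tested genes.

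Replicate 3 widened these intervals, since it moved many genes in both groups. With the replicate number as a block, 0 of 38 genes passed and the smallest adjusted p was 0.294 (limma). Then 4 of 38 genes had an unadjusted p under 0.05 (10.5%, against 12.6% of all tested genes), namely *PTTG1*, *CDC25C*, *CDC25B* and *AURKB*. The 95% intervals of all 38 then lay between -0.5 and 0.5. Over replicates 1 and 2 alone 0 of 38 passed, with a smallest adjusted p of 0.518. Taking each same-numbered pair by itself, 12 genes were lower with MDM4 in all 3 pairs (31.6%, against 18.6% of all tested genes) and 5 were higher in all 3 (13.2%, against 16.6%). The 12 were *CCNB1*, *CDC25B*, *CDC25C*, *CENPA*, *NDC80*, *KIF20A*, *KIF2C*, *KIF4A*, *TPX2*, *DLGAP5*, *UBE2C* and *PTTG1*, and the 5 were *CDK1*, *TTK*, *CENPE*, *NUF2* and *ECT2*. Some of these differences were slight, such as -0.0018 for *KIF20A* in pair 1, -0.0032 for *CENPA* in pair 2 and 0.03 for *ECT2* in pair 2.

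**Figure D2:**
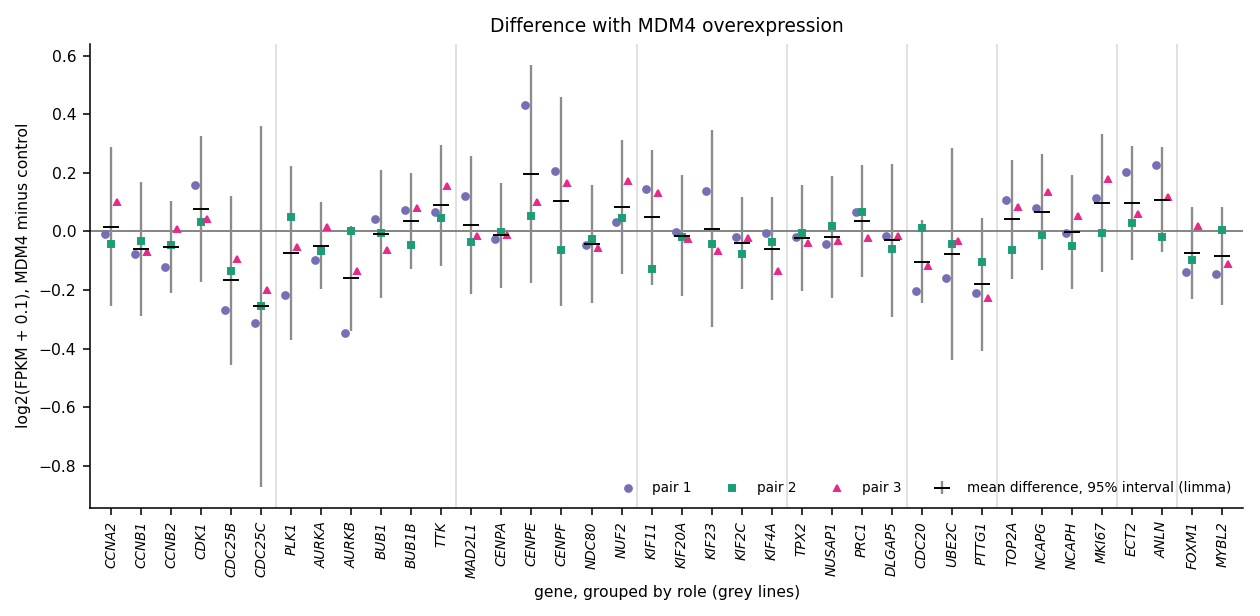
Difference of log2(FPKM + 0.1), MDM4 minus control, for the 38 genes, as the mean with its 95% limma interval (black and grey) and as each same-numbered pair (coloured points). All 38 intervals contain 0, and that of *CDC25C* is the widest, from -0.87 to 0.36.

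Among the cyclins, CDK1 and its phosphatases, the largest differences were those of the phosphatases. *CDC25C* was at 7.59, 7.44 and 12.1 FPKM in the control libraries, in replicate order, and at 6.09, 6.22 and 10.5 FPKM in the MDM4 libraries. It was lower with MDM4 in each pair, by a mean of -0.26 ± 0.26 (SE) on the log2 scale, yet the groups overlapped because replicate 3 was the highest library of both. *CDC25B*, which acts on CDK1 at the centrosome, was at 81.6, 71.8 and 90.6 FPKM in control and at 67.8, 65.3 and 84.8 FPKM in MDM4 cells, a difference of -0.17 ± 0.12 (SE). The cyclins and CDK1 itself differed by between -0.06 (*CCNB1*) and 0.08 (*CDK1*).

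*CCNB1*, cyclin B1, was at 132, 131 and 112 FPKM in control and at 125, 128 and 106 FPKM in MDM4 cells. *CDK1* was at 77.7, 85.6 and 69.7 FPKM in control and at 86.7, 87.5 and 71.7 FPKM in MDM4 cells. In both genes the lowest library of each group was replicate 3, and the values of the 2 groups interleaved. *CCNA2*, cyclin A2, had means of 46.7 ± 6.38 FPKM in control and 47.0 ± 4.12 FPKM in MDM4 cells (SD, n = 3), and *CCNB2*, cyclin B2, had 63.8 ± 1.73 and 61.6 ± 3.26 FPKM (SD, n = 3).

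Of the mitotic kinases, *AURKB*, the kinase of the chromosomal passenger complex, had the smallest unadjusted p of the 38 genes and an adjusted p of 0.9999 (limma). It was at 95.9, 84.7 and 86.2 FPKM in control and at 75.3, 84.7 and 78.6 FPKM in MDM4 cells, a difference of -0.16 ± 0.08 (SE). That difference came from pairs 1 and 3, at -0.35 and -0.13, while pair 2 was at 0.00. *PLK1*, which drives spindle formation and mitotic exit, *AURKA*, the Aurora kinase of the spindle poles, and the checkpoint kinases *BUB1*, *BUB1B* and *TTK* differed by between -0.07 (*PLK1*) and 0.09 (*TTK*).

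Centromere, kinetochore and checkpoint genes gave the largest positive difference. *CENPE*, the kinesin that moves chromosomes to the spindle equator, was at 6.19, 8.41 and 9.06 FPKM in control and at 8.38, 8.74 and 9.73 FPKM in MDM4 cells, 0.20 ± 0.16 (SE) on the log2 scale, and control replicate 1 was its lowest library. *CENPF*, a large kinetochore and nuclear matrix protein, differed by 0.10 ± 0.15 (SE). The checkpoint protein *MAD2L1*, the centromeric histone *CENPA* and the kinetochore anchors *NDC80* and *NUF2* were between -0.04 and 0.08.

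The kinesins *KIF11* (spindle bipolarity), *KIF20A* and *KIF23* (midzone and midbody), *KIF2C* (microtubule depolymerisation) and *KIF4A* (chromosome condensation and midzone length) differed by between -0.06 and 0.05. Differences of the spindle assembly factor *TPX2*, the microtubule-binding *NUSAP1* and *DLGAP5* and the midzone bundler *PRC1* lay between -0.03 and 0.04.

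For anaphase entry all 3 genes were lower in the mean with MDM4, and none passed. *PTTG1*, securin, was at 106, 102 and 125 FPKM in control and at 91.9, 94.9 and 107 FPKM in MDM4 cells, lower in each pair and by -0.18 ± 0.10 (SE) in the mean. *UBE2C* was at 294, 283 and 209 FPKM in control and at 263, 275 and 205 FPKM in MDM4 cells, a difference of -0.08 ± 0.16 (SE). *CDC20*, the APC/C coactivator, was at 150.0 ± 4.91 FPKM in control and 139.7 ± 6.75 FPKM in MDM4 cells (SD, n = 3), a difference of -0.10 ± 0.06 (SE).

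*TOP2A*, the topoisomerase that untangles sister chromatids, the condensin subunits *NCAPG* and *NCAPH* and *MKI67*, the Ki-67 protein of the chromosome surface, differed by at most 0.10. *MKI67* was at 74.0, 84.3 and 65.6 FPKM in control and at 80.1, 84.1 and 74.4 FPKM in MDM4 cells, and the groups overlapped. The cytokinesis genes *ECT2*, which activates RhoA at the midzone, and *ANLN*, the contractile ring scaffold, differed by 0.10 and 0.11. The transcription factors *FOXM1* (47.8 ± 1.74 against 45.4 ± 1.44 FPKM, SD, n = 3) and *MYBL2*, which encodes B-MYB (60.5 ± 3.24 against 57.1 ± 2.68 FPKM, SD, n = 3), differed by -0.07 and -0.08. None of these differences passed the test.

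Between replicate 3 and replicates 1 and 2, 17 of the 38 genes passed the test (44.7%), close to the share of all tested genes (44.1%). In the fit of replicate 3 against replicates 1 and 2, with the group as a covariate, 8 of 38 genes rose (21.1%, against 29.6% of all tested genes) and 9 fell (23.7%, against 14.6%), at an adjusted p under 0.05 (limma). The 8 that rose were *CDC25C*, *CENPF*, *CDC25B*, *DLGAP5*, *PTTG1*, *BUB1*, *KIF20A* and *TPX2*, and the 9 that fell were *UBE2C*, *KIF23*, *PLK1*, *CCNA2*, *CDK1*, *CCNB1*, *MAD2L1*, *MKI67* and *PRC1*. The median over the 38 genes was -0.0011 and that over all tested genes 0.09. After median ratio scaling of the libraries the counts were 5 higher (13.2%, against 20.4% of all tested genes) and 12 lower (31.6%, against 21.5%), and the share of all called genes that were higher went from 67.0% to 48.6%. Leaving out control replicate 2 or 3 or MDM4 replicate 1 or 3 moved the main counts in the same direction as those of all tested genes. The counts stayed at 8 and 9 without control replicate 1 (32.1% and 15.9% of all tested genes). They were 8 and 7 without MDM4 replicate 2 (24.4% and 11.7% of all tested genes). Without control replicate 2 there were 13 higher and 10 lower (33.1% and 16.8% of all tested genes), and without control replicate 3 there were 3 and 5 (14.7% and 7.44%). Without MDM4 replicate 1 there were 5 and 8 (24.3% and 11.8% of all tested genes), and without MDM4 replicate 3 there were 2 and 2 (11.7% and 7.14%). The fibroblast and endothelial marker sums were higher in the same 2 libraries, and their part in these calls was not tested.

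In the called genes the replicate 3 libraries did not overlap the other 4, except in *MKI67*, where MDM4 replicate 3 at 74.4 FPKM lay above control replicate 1 at 74.0 FPKM. In 13 genes both replicate 3 libraries lay above the other 4 (34.2%, against 37.3% of all tested genes) and in 10 both lay below them (26.3%, against 18.4%). The split has only 2 libraries on one side, the labels do not say how replicate 3 was made, and a culture or library preparation of its own cannot be told apart from its number. Nothing states that the replicates of a group were separate cultures, so p-values measure the spread between these libraries.

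*CDC25C* had the largest difference, with 12.1 and 10.5 FPKM in replicate 3 of control and MDM4 cells against 6.09 to 7.59 FPKM in the other 4 libraries. It was 1.65 times as high, 0.72 ± 0.08 (SE) on the log2 scale, with an adjusted p of 8.07e-05. *CENPF* was at 35.4 and 39.7 FPKM in replicate 3 and between 25.7 and 31.4 FPKM in the others, a difference of 0.36 ± 0.08 (SE). *CDC25B* rose by 0.30, *DLGAP5* by 0.26, *PTTG1* by 0.23, *BUB1* by 0.20, and *KIF20A* and *TPX2* by 0.16 each.

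*UBE2C* fell most, with 209 and 205 FPKM in replicate 3 against 263 to 294 FPKM in the other 4 libraries. Its difference was -0.43 ± 0.05 (SE), 0.743 times the level, with an adjusted p of 7.95e-05. *KIF23* (38.8 and 37.1 FPKM against 45.2 to 51.1 FPKM) fell by 0.36 and *PLK1* (63.8 and 61.5 FPKM against 72.7 to 84.5 FPKM) fell by 0.31. *CCNA2*, *CDK1* and *CCNB1* moved by nearly the same amount, -0.25 each, and *MAD2L1*, *MKI67* and *PRC1* fell less, with differences of -0.23, -0.20 and -0.17.

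Genes of the same role were thus called in both directions in the main fit, where 29.6% of all tested genes rose and 14.6% fell. Among the cyclins, CDK1 and its phosphatases 2 rose, both phosphatases, and 3 fell, and *CCNB2* did not pass (0.01 ± 0.06, SE). Each of the mitotic kinases, the kinetochore genes, the kinesins and the anaphase genes had 1 gene that rose and 1 that fell. Of the spindle assembly genes 2 rose and 1 fell, and in chromosome structure 1 fell. *ECT2*, *ANLN*, *FOXM1* and *MYBL2* did not pass, at 0.00, -0.07, -0.02 and -0.10 on the log2 scale. Of the 21 genes that did not pass, *CENPE* had the largest difference, 0.25 ± 0.11 (SE). After median ratio scaling *BUB1*, *KIF20A* and *TPX2* were no longer called, so that none of the mitotic kinases or kinesins rose.

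Control and MDM4 libraries gave nearly the same pattern. The difference of replicate 3 from the mean of replicates 1 and 2 was taken within each group. It had the same sign in both groups for 31 of 38 genes (81.6%, against 83.9% of all tested genes). The values correlated at a Pearson r of 0.94 across the 38 genes, which are not independent replicates (0.78 across all tested genes). These are values of separate libraries, and replicate 3 of both groups may share a culture or a preparation. In control cells they ran from -0.46 (*UBE2C*) to 0.68 (*CDC25C*), and in MDM4 cells from -0.42 (*KIF23*) to 0.76 (*CDC25C*).

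**Figure D3:**
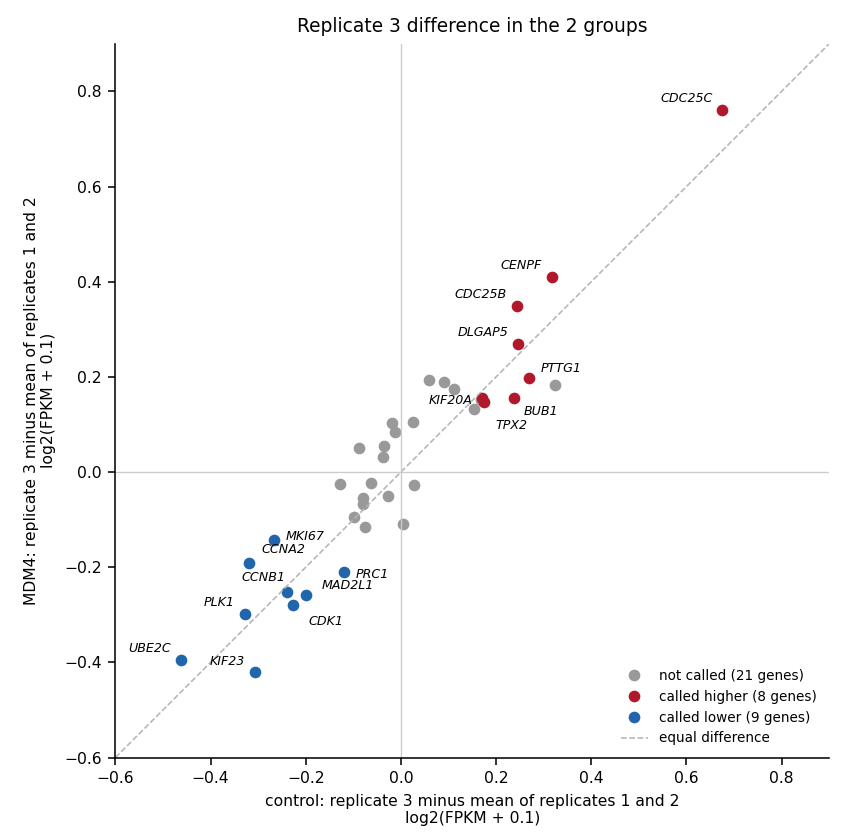
Difference of replicate 3 from the mean of replicates 1 and 2 on the log2(FPKM + 0.1) scale, in control cells (x axis) and in MDM4 cells (y axis), for the 38 genes, coloured by the call of the joint fit. Points lie near the line of equal difference, with *CDC25C* farthest up and *UBE2C* and *KIF23* farthest down.

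*MDM4* itself was lowest in replicate 3 of the MDM4 group, and the difference between MDM4 and control cells was therefore compared between replicate 3 and replicates 1 and 2. Of the 38 genes 0 passed (0.194% of all tested genes did, 25 genes). An unadjusted p under 0.05 was found for 0 of the 38 and for 293 of all tested genes (2.27%, limma). The estimates ran from -0.14 (*CENPE*) to 0.14 (*FOXM1*) on the log2 scale, and their 95% intervals lay between -1 and 1 for all 38. That term rests on 1 library of each group, and its spread was taken from replicates 1 and 2.

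Other genes of G2 and mitosis, 126 in 8 lists, gave 0 calls in either direction for MDM4 against control, with a median of 0.02 and values from -0.26 to 0.25 on the log2 scale. In replicate 3, 13 of the 126 rose (10.3%, against 29.6% of all tested genes) and 30 fell (23.8%, against 14.6%), and the lists that make up the 126 are to be read against the same 2 shares. Kinetochore and CENP genes had 1 higher (*CENPI*) and 7 lower of 31, led by *ZWINT*, *TRIP13* and *CENPN*. The list of passenger complex and shugoshin genes, which also holds *BUB3*, had 3 lower of 6 (*CDCA8*, *BUB3* and *BIRC5*). Of the 18 entry kinases, inhibitors and phosphatases 0 rose and 7 fell, and of the 19 APC/C genes 1 rose, *ESPL1*, which encodes separase, and 3 fell.

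*CDC25A*, the phosphatase of both the G1/S and the G2/M step, had the strongest of these falls. It was at 17.02 and 16.7 FPKM in replicate 3 and at 27.3 to 29.7 FPKM in the other libraries, a difference of -0.76 ± 0.06 (SE), opposite in direction to *CDC25B* and *CDC25C*. *WEE1*, which phosphorylates and inhibits CDK1, differed by -0.41 and *CCNF*, cyclin F, by -0.42. *FBXO5*, the inhibitor of the APC/C, was at 16.9 and 17.7 FPKM in replicate 3 against 24.2 to 27.2 FPKM, a difference of -0.57. *KIF18B*, a kinesin of microtubule ends, differed by -0.56, *NEK2*, the centrosome kinase, by 0.37 and *HMMR*, a spindle protein, by 0.29.

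Other mitotic kinesins and spindle genes had 4 higher and 4 lower of 21, condensin and cohesin 4 and 4 of 16, centriole and centrosome genes 2 and 2 of 9, and the further cytokinesis genes 1 (*CIT*) and 0 of 6. The DREAM and MuvB list of 14 genes also holds the NF-Y genes *NFYA*, *NFYB* and *NFYC*. In it 3 rose, *TFDP2* (0.68), *RBL2* (0.42) and *LIN37* (0.47), and 3 fell, *TFDP1* (-0.35), *NFYC* (-0.34) and *E2F4* (-0.21). That was 21.4% each way, against 29.6% and 14.6% of all tested genes.

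For comparison, 36 genes of G1/S and replication had 0 calls for MDM4 against control. In replicate 3, 0 rose (against 29.6% of all tested genes) and 19 fell (52.8%, against 14.6%), with a median of -0.17, and the 3 with the smallest p were *CCND1* (-0.56), *UHRF1* (-0.59) and *CCNE1* (-0.63). The summed FPKM of the 38 G2/M genes over that of the 36 G1/S genes was 0.938 and 0.964 in control replicates 1 and 2 and 1.09 in replicate 3, and 0.939, 0.950 and 1.09 in MDM4 replicates 1 to 3. So the ratio was higher in replicate 3 of both groups, without a test of its own. The sum of the 38 genes was lowest in replicate 3 of each group, at 2309 and 2281 FPKM. That of the G1/S genes was 2120 and 2085 FPKM there, against 2459 to 2542 FPKM in the other libraries. *CCND1*, the most abundant of them, was at 363 FPKM in both replicate 3 libraries and at 522 to 554 FPKM in the others.

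CDK inhibitors and p53-linked G2 arrest genes, 14 in number, had 0 calls for MDM4 against control, and in replicate 3 11 rose (78.6%, against 29.6% of all tested genes) and 2 fell (14.3%, against 14.6%), with a median of 0.37. *CDKN1A*, which encodes p21, was at 87.9, 76.0 and 131 FPKM in control and at 83.9, 92.1 and 132 FPKM in MDM4 cells. Its difference was 0.07 ± 0.23 (SE) between MDM4 and control cells and 0.63 ± 0.07 (SE) in replicate 3. *CDKN1C* (1.196) and *CCNG2* (1.03) rose more, and *PLK2* (-1.11) and *SFN* (-0.68) fell. These genes moved in the libraries in which *CDC25C* rose and *UBE2C* fell, and their part in those differences was not tested. In bulk RNA, fewer cells in a phase and less RNA per cell cannot be told apart.

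**Figure D4:**
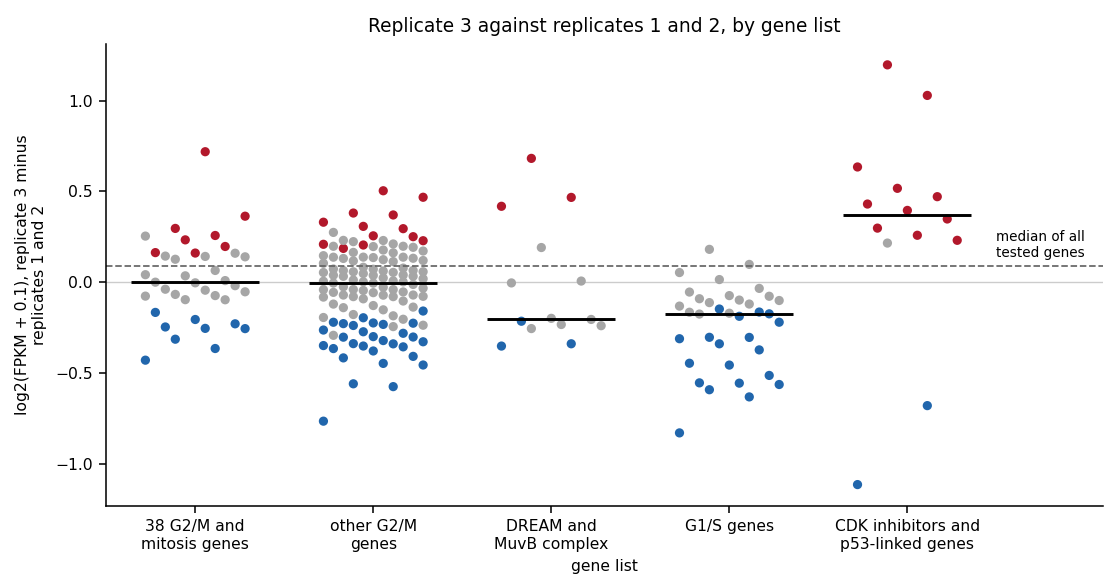
Difference of replicate 3 from replicates 1 and 2 (log2(FPKM + 0.1), from the joint fit) for each tested gene of 5 lists, with genes called higher in red, called lower in blue and not called in grey. Black bars are list medians, -0.0011 for the 38 genes, -0.17 for the G1/S genes and 0.37 for the CDK inhibitors and p53-linked genes, and the dashed line is the median of all tested genes, 0.09.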

How the data were processed

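Poly(A)-selected RNA of 6 SW480 samples was sequenced on an Illumina HiSeq2000. The authors deposited FPKM for 19225 symbols, 2036 of them 0 in every library. The aligner, annotation, counting program and strand setting are not given in the sources used here, so reads of overlapping genes cannot be told apart. Columns carry a letter and a number, read as group and replicate, and 0 columns of values were left unused.

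Each gene's FPKM were whole multiples of 1 step per library, from which reads were recovered for 17189 of 17189 genes above 0, within 0.02 reads, together with the length that the FPKM imply. For 12884 genes whose mean reached 0.5 FPKM, log2(FPKM + 0.1) went into limma 3.58.1 (R 4.3.3, eBayes with trend), with Benjamini-Hochberg adjustment, after tests on simulated data. The pseudocount makes fold changes of low genes smaller. Intervals cover the spread between libraries. Tables used Python 3.11.15, pandas 2.3.3, numpy 2.4.6 and scipy 1.17.1, and plots matplotlib 3.10.9. Promoter windows come from RefSeq on GRCh38.p14, with the strand of each gene.

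Same-numbered libraries were treated as pairs for the values of each pair and for the replicate block, while the main fit was unpaired. Deviations from the group mean correlated at 0.458, 0.451 and 0.783 between same-numbered libraries. Replicates 1 and 2 correlated across numbers at 0.439 and 0.462 too, so these values do not tell pair 1 from pair 2. As alternatives, the pseudocount, the filter and the scaling were changed, and the rest were eBayes without trend, voom on recovered reads, the replicate block, a term for replicate 3, replicates 1 and 2 alone, no group term, a fold threshold and each library left out. All 38 genes were named by role, with up to 3 called genes of each other list and direction by smallest p, *MDM4* and *CDKN1A*. The genes, the split by replicate 3 and the lists were chosen with earlier results of these data known.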

Additional observations from a re-analysis of the deposited data

How the results depend on the processing

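None of the 38 genes passed for MDM4 against control under any of the 20 alternatives run, where the smallest adjusted p was 0.211, nor for the difference of that effect in replicate 3 under any of 13 (smallest adjusted p 0.347). With the replicate block the count of genes was 0, with 4 of 38 at an unadjusted p under 0.05 (10.5%, against 12.6% of all tested genes), and pairing changed no other call of the 38. Over all genes MDM4 against control had 0 calls as given, 2 with the replicate block or the term for replicate 3, 27 with voom on recovered reads and the block, 69 over replicates 1 and 2 alone, 21 without control replicate 3 and 1 without MDM4 replicate 3, and the difference in replicate 3 went from 25 calls to between 0 (no filter) and 112 (without control replicate 1).

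For replicate 3 the main fit gave 8 higher and 9 lower genes (29.6% and 14.6% of all tested genes). Median ratio scaling gave 5 higher and 12 lower (20.4% and 21.5% of all tested genes). With eBayes without trend there were 5 higher and 6 lower (26.1% and 11.9% of all tested genes). An absolute log2 difference over 1 left 0 and 0 (2.04% and 0.497% of all tested genes). Leaving out 1 library gave between 2 and 13 higher and between 2 and 10 lower. Those that moved a count by over 1.5 times were control replicate 2 (13 higher), control replicate 3 (3 higher and 5 lower), MDM4 replicate 1 (5 higher) and MDM4 replicate 3 (2 higher, *PTTG1* and *CDC25C*, and 2 lower, *UBE2C* and *PLK1*), the replicate 3 libraries leaving 1 on that side. The cause of the other changes was not tested. For each library named here, leaving it out moved the shares of all tested genes in the same direction, as given above. All 17 called genes kept their direction under each of 17 alternatives, in 233 of 289 combinations with the call. The medians of all genes were 0.09 as given and 0.0046 with median ratio scaling, and those of the 38 genes -0.0011 and -0.09. *CDC25C* had the fewest reads, 469 to 1054 per library, and how far depth limited each gene was not tested.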

Other observations

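The 3 same-numbered pairs differed in how MDM4 minus control varied with gene length. Taking the length that the FPKM imply, from 775 bases for *UBE2C* to 11957 bases for *MKI67*, the pair's difference correlated with log2 length across the 38 genes at a Spearman rho of 0.63 in pair 1, -0.10 in pair 2 and 0.51 in pair 3. Across all 12884 tested genes the values were 0.39, -0.04 and 0.38. Genes are not independent replicates and share the libraries, so no p is given. The 4 longest genes, *MKI67*, *CENPF*, *CENPE* and *NCAPH*, were at 0.12, 0.21, 0.43 and -0.01 in pair 1 and at -0.0039, -0.06, 0.05 and -0.05 in pair 2. The 5 shortest, *UBE2C*, *PTTG1*, *AURKB*, *CENPA* and *MAD2L1*, were at -0.16, -0.21, -0.35, -0.03 and 0.12 in pair 1 and at -0.04, -0.11, 0.00, -0.0032 and -0.04 in pair 2. *NCAPH* and *MAD2L1* thus went against the trend of pair 1. The part of gene length in the mean differences of these genes was not tested. The difference of replicate 3 went with length at a rho of 0.22 in control and 0.21 in MDM4 cells across the 38 genes, and at 0.05 and 0.09 across all tested genes.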
